A study of Mus musculus with 9 samples.

Results

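Antigen receptor variable segments are the V genes of the immunoglobulin and T cell receptor loci, and their transcripts were followed here in MC38 tumours with and without CD43. Every name of the deposited count tables that begins with Ighv, Igkv, Iglv, Trav, Trbv, Trgv or Trdv and a digit was taken, if it had at least 1 count over the 9 tables. The tables listed 544 such names among 42428 gene names. Of these, 232 had a count and are described here: 77 of the immunoglobulin heavy chain locus (Igh), 74 of the kappa light chain locus (Igk), 3 of the lambda light chain locus (Igl), and 54, 20, 1 and 3 of the T cell receptor alpha (Tra), beta (Trb), gamma (Trg) and delta (Trd) loci. The other 312 names were listed at 0 in every tumour.

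The study compared tumours that MC38 cells, a mouse colorectal carcinoma line, formed in C57BL/6J mice. In 4 tumours the implanted cells carried a vector control (Vec), and in 5 tumours CD43, the product of Spn, had been knocked out in the implanted cells (CD43-KO). All tumours were taken at day 21 after inoculation, and RNA of whole tumour tissue was sequenced, so host lymphocytes and carcinoma cells were measured together. The labels give the genotype WT for the Vec tumours and CD43 KO for the others, and do not say whether the knockout cells were 1 clone, nor the sex or age of the mice.

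A V segment is joined to a D or J segment, or only to a J segment, when a lymphocyte rearranges its receptor genes, and the joined exon is spliced to a constant region. Each B cell or T cell clone therefore transcribes its own choice of segments, and clones that share a segment cannot be separated by its count. Plasma cells, the antibody-secreting descendants of B cells, hold far more immunoglobulin messenger RNA than other B cells, so the level of a segment in bulk tissue follows both the number and the kind of cells that use it. Fewer cells of a type and less RNA per cell cannot be told apart in these data, and heavy and light chains of the same cell are not linked.

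The 4 segments below are printed first, because the results turn on them and on how alike they are. The sequences are the coding parts of GENCODE M21 transcripts on GRCm38, read 5′ to 3′ on the strand of the gene, and the coordinates of each coding part include the intron between the leader exon and the V exon. The last 300 bases are shown, counted from base 52 of 351 in Ighv1-81, base 36 of 335 in Trbv31 and base 60 of 359 in the kappa pair. In the first pair the capitals mark the last in-frame cysteine codon, the conserved cysteine that precedes the rearranged CDR3 junction. Ighv1-81 lies at chr12:115920279-115920712 on the minus strand and Trbv31 at chr6:41557693-41558371 on the minus strand.
Ighv1-81: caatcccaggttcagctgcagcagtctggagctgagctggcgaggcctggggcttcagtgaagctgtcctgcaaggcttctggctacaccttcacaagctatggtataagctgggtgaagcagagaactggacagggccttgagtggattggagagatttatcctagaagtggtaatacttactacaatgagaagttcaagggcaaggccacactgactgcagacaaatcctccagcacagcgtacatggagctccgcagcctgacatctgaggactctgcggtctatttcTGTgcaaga
Trbv31: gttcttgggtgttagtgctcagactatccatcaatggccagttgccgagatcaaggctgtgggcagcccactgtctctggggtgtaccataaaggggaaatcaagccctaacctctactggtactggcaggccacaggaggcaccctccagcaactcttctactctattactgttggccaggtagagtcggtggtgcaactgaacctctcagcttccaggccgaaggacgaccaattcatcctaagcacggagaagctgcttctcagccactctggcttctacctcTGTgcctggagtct
Igkv1-110 lies at chr6:68270527-68271267 and Igkv1-117 at chr6:68121091-68121827, both on the plus strand. In this second pair the capitals mark the bases at which the pair differs.
Igkv1-110: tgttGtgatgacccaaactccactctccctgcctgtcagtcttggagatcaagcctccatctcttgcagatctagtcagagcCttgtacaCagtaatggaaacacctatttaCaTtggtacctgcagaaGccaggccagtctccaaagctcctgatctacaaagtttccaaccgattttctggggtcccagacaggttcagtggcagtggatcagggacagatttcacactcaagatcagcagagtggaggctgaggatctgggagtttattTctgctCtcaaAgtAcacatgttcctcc
Igkv1-117: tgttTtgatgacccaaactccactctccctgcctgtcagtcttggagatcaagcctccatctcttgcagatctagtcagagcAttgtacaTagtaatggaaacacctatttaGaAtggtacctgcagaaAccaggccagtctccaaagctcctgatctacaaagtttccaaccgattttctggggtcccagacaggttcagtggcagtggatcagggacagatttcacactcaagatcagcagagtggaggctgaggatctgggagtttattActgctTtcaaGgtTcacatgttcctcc
The coding sequences of the pair differ at 10 positions, all within the stretch shown, and are 97.2% identical, with a longest identical run of 142 bases. Of the windows of 50 bases in Igkv1-110, 50.9% also occur in another V segment, nearly all of them in Igkv1-117. The division of counts between the 2 segments is therefore uncertain, since the counting step is not given in the sources used here. Ighv1-81 shares 11.6% of its windows with other segments, most often with Ighv1-77, and Trbv31 shares none.

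Total counts were 60751738 to 72114385 in Vec and 44814061 to 62194418 in CD43-KO libraries, and the segments held a very small part of them. Values per tumour are given in the order of the replicate numbers. The segments had 272, 577, 905 and 660 counts in the Vec tumours and 2000, 4277, 1677, 759 and 1000 in the CD43-KO tumours, 12127 in all. The intervals given below for shares are Wilson 95% intervals that cover counting error only, and the counts may not be independent fragments. CD43-KO replicate 3 held more muscle and fat transcripts than any other tumour, with 819.5 summed CPM of 4 muscle genes against 59.2 to 79.3 in Vec and 358.5 of 4 fat genes against 34.5 to 46.1. Its part in the segment levels was not tested, and values without it are given for the Igh, Igk and Trd sums, Ighv1-81 and the kappa pair. Spn, the targeted gene, was at 41.1, 43.8, 44.7 and 53.9 CPM (counts scaled to library size with TMM factors) in Vec and at 25.7, 33.7, 31.2, 23.0 and 6.82 CPM in CD43-KO. The groups did not overlap, which held in that direction for 3.49% of all names tested and for 0 of the segments tested, and the log2 fold change was -0.93 ± 0.36 (SE; adjusted p = 0.281 in edgeR's quasi-likelihood test). Of 7 carcinoma and colon markers, Cdx2 was at 0 in every tumour. The 3 tested were Cdh1 (10.6 CPM in Vec against 11.5 in CD43-KO), Epcam (0.655 against 0.519) and Krt19 (0.604 against 0.615), and their median log2 fold change was 0.03.

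The kind of segment that was counted followed its annotation. In the RefSeq annotation of GRCm38.p6, which matched 226 of the 232 segments, 220 of 365 listed functional segments (60.3%) had a count, against 6 of 153 listed pseudogenes (3.92%). Pseudogenes held 2.23% of all segment counts, and most of that stood in Igkv14-126 and Trbv29, a pair that RefSeq lists as pseudogenes. The tables were sparse: 99 segments had fewer than 10 counts over the 9 tumours, 60 had counts in 1 tumour only, and 8 had counts in all 9. Over the 220 counted segments with a coding sequence in GENCODE M21, its length ran from 331 to 394 bases, so counts of segments within a locus were compared without a length correction.

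Heavy chain segments had higher summed levels in the CD43-KO tumours. Summed over the locus, they reached 0.996, 2.03, 2.50 and 0.851 CPM in the Vec tumours, and 5.81, 8.12, 6.86, 2.80 and 3.28 CPM in the CD43-KO tumours. The lowest CD43-KO tumour stood above the highest Vec tumour. The means were 1.59 ± 0.798 (SD, n = 4) and 5.38 ± 2.29 CPM (SD, n = 5), a difference of 1.74 ± 0.47 (SE) in mean log2(CPM + 0.05). Locus sums are scores over the chosen names, so they are given with no test. Without CD43-KO replicate 3 the difference was 1.63.

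**Figure D1:**
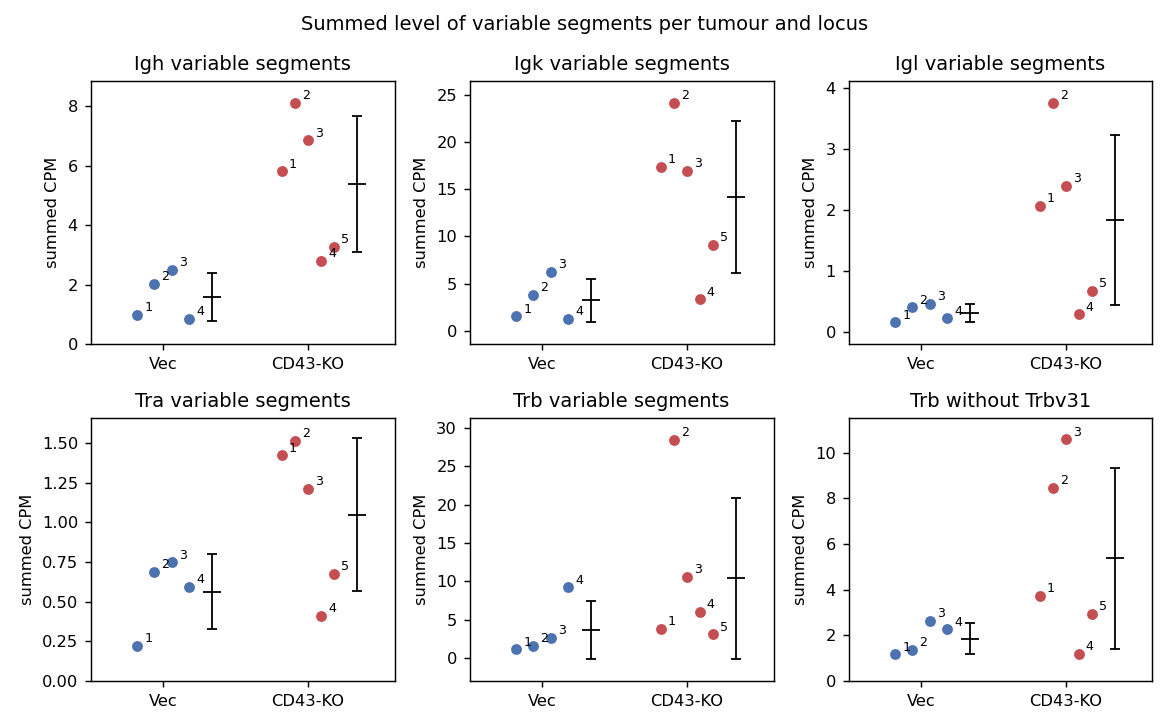
Summed CPM of the variable segments of each locus in every tumour, with replicate numbers beside the points and the mean and SD at the right of each group (4 Vec, 5 CD43-KO). The groups are apart for Igh (highest Vec tumour 2.50 CPM, lowest CD43-KO tumour 2.80 CPM) and overlap in the other panels, and the last panel shows Trb with its leading segment, Trbv31, left out.

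A single segment, Ighv1-81, made up much of this difference. It had 0, 2, 11 and 0 counts in the Vec tumours and 150, 244, 132, 85 and 54 counts in the CD43-KO tumours. It was the most abundant heavy chain segment in 5 of 5 CD43-KO tumours and in 0 of 4 Vec tumours. Its share of all Igh segment counts was 39.5% (interval 34.7 to 44.5%), 46.4% (42.2 to 50.7%), 44.7% (39.2 to 50.5%), 51.8% (44.2 to 59.3%) and 27.8% (22.0 to 34.5%) in the CD43-KO tumours. In Vec replicates 2 and 3 the share was 1.47% (0.404 to 5.20%) and 6.21% (3.51 to 10.8%), and in replicates 1 and 4 the absence of counts leaves an upper bound of 5.75% and 7.71%. Thus the highest Vec share lay below the lowest CD43-KO share. The Vec tumours were each led by another segment: Ighv8-12 (22.2%), Ighv1-64 (11.8%), Ighv1-26 (18.6%) and Ighv1-22 (28.3%) in replicates 1 to 4.

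Ighv1-81 averaged 0.0462 ± 0.0739 CPM in Vec (SD, n = 4) against 2.30 ± 1.16 CPM in CD43-KO (SD, n = 5). Its log2 fold change was 5.50 ± 0.90 (SE), with an adjusted p of 0.129 in edgeR's quasi-likelihood test with Benjamini-Hochberg adjustment over all names tested. It did not pass the threshold of 0.05 there, and passed in DESeq2 (adjusted p = 8.2e-10) and limma voom (adjusted p = 0.0249). Without Vec replicate 3, which held 11 of the 13 Vec counts, the edgeR log2 fold change was 7.48 with an adjusted p of 0.0449. Without CD43-KO replicate 3 it was 5.36 with an adjusted p of 0.0917. In the setting that raised it most, the adjusted p of Ighv1-81 was 0.395.

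With Ighv1-81 left out, the remaining heavy chain segments came to 1.55 ± 0.736 CPM in Vec against 3.08 ± 1.21 CPM in CD43-KO, a log2 difference of 0.98 ± 0.46 (SE). The groups then overlapped, with 4 of 5 CD43-KO tumours above every Vec tumour. Ighv1-26, the second segment of the locus by mean level, had 2, 7, 33 and 6 counts in Vec and 17, 70, 14, 4 and 18 in CD43-KO, and its log2 fold change was 1.18 ± 0.84 (SE; adjusted p = 0.509 in edgeR). Ighv1-9, the third, stood almost wholly in CD43-KO replicate 1, with 41 of its 56 counts.

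The Ighv1 family, the largest heavy chain family in mice, held 41.3, 58.1, 70.6 and 60.9% of Igh counts in the Vec tumours and 80.5, 88.8, 79.0, 78.0 and 83.5% in the CD43-KO tumours. Without Ighv1-81 those shares were 57.1 ± 11.5% (SD, n = 4) and 68.1 ± 10.3% (SD, n = 5), and they overlapped. The mean share was smaller in CD43-KO for 7 of the other 13 families, such as Ighv6 (6.75 ± 2.82% in Vec and 1.55 ± 0.841% in CD43-KO) and Ighv5 (7.60 ± 5.83% and 1.63 ± 0.990%). It was larger for 6, each under 3% of Igh on average in both groups, such as Ighv10 (1.99 ± 2.49% and 2.49 ± 3.28%) and Ighv14 (0.184 ± 0.368% and 1.13 ± 2.54%). A share must fall where another rises, so these family shares are not independent of Ighv1-81.

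Kappa chain segments were led in every CD43-KO tumour by 1 of the near-identical pair printed above. Igkv1-110 had 3, 0, 30 and 2 counts in Vec and 313, 367, 220, 54 and 121 in CD43-KO, and it led the locus in CD43-KO replicates 1 to 4. Igkv1-117 had 7, 6, 10 and 0 counts in Vec and 96, 354, 78, 51 and 150 in CD43-KO, and it led in replicate 5. For both segments, as for Ighv1-81, every CD43-KO tumour stood above every Vec tumour in CPM, a pattern held by 2.09% of all names tested. The Vec tumours were led by Igkv4-59 (16.2% of Igk counts), Igkv1-135 (12.8% and 20.8%) and Igkv10-96 (31.9%) in replicates 1, 2 and 3, and 4.

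Igkv1-110 averaged 0.127 ± 0.199 CPM in Vec against 3.71 ± 2.09 CPM in CD43-KO, a log2 fold change of 4.80 ± 1.01 (SE; adjusted p = 0.152 in edgeR). Igkv1-117 averaged 0.0853 ± 0.0607 and 2.43 ± 1.80 CPM, a log2 fold change of 4.77 ± 0.77 (SE; adjusted p = 0.125 in edgeR). Neither passed in edgeR. DESeq2 gave adjusted p = 0.00149 for Igkv1-110 and 8.2e-10 for Igkv1-117, and limma voom gave 0.0491 and 0.0426. Without Vec replicate 3, which held 30 of the 35 Vec counts of Igkv1-110, that segment had a log2 fold change of 6.96 and passed in edgeR (adjusted p = 0.0449) and Igkv1-117 did not (adjusted p = 0.0721). Without CD43-KO replicate 3 their log2 fold changes were 4.65 and 4.84, and the summed Igk difference was 1.99. In the settings that raised it most, the adjusted p was 0.397 for Igkv1-110 and 0.395 for Igkv1-117.

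The Igk locus as a whole came to 1.56, 3.83, 6.25 and 1.28 CPM in Vec and 17.4, 24.1, 17.0, 3.36 and 9.14 CPM in CD43-KO. Of the 5 CD43-KO tumours, 4 stood above every Vec tumour, and replicate 4 lay inside the Vec range. The log2 difference of the means was 2.13 ± 0.73 (SE), and 1.35 ± 0.77 with the pair left out (3.02 ± 2.11 against 8.06 ± 4.80 CPM), when 3 of 5 CD43-KO tumours stood above every Vec tumour. The share of the Igkv1 family was 21.7 ± 8.85% of Igk in Vec and 48.2 ± 4.56% in CD43-KO. Without the pair the mean was higher in Vec, at 16.6 ± 9.77% against 4.84 ± 6.28% in CD43-KO, and the groups overlapped. The pair was chosen after its values were seen to be high in CD43-KO, so a fall of the CD43-KO share without it was built in. That choice does not fix whether the share ends below that of Vec, and the difference left was not tested. Igkv1-135 of the same family had 0, 33, 92 and 15 counts in Vec and at most 8 counts in any CD43-KO tumour, so the groups overlapped through Vec replicate 1.

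**Figure D2:**
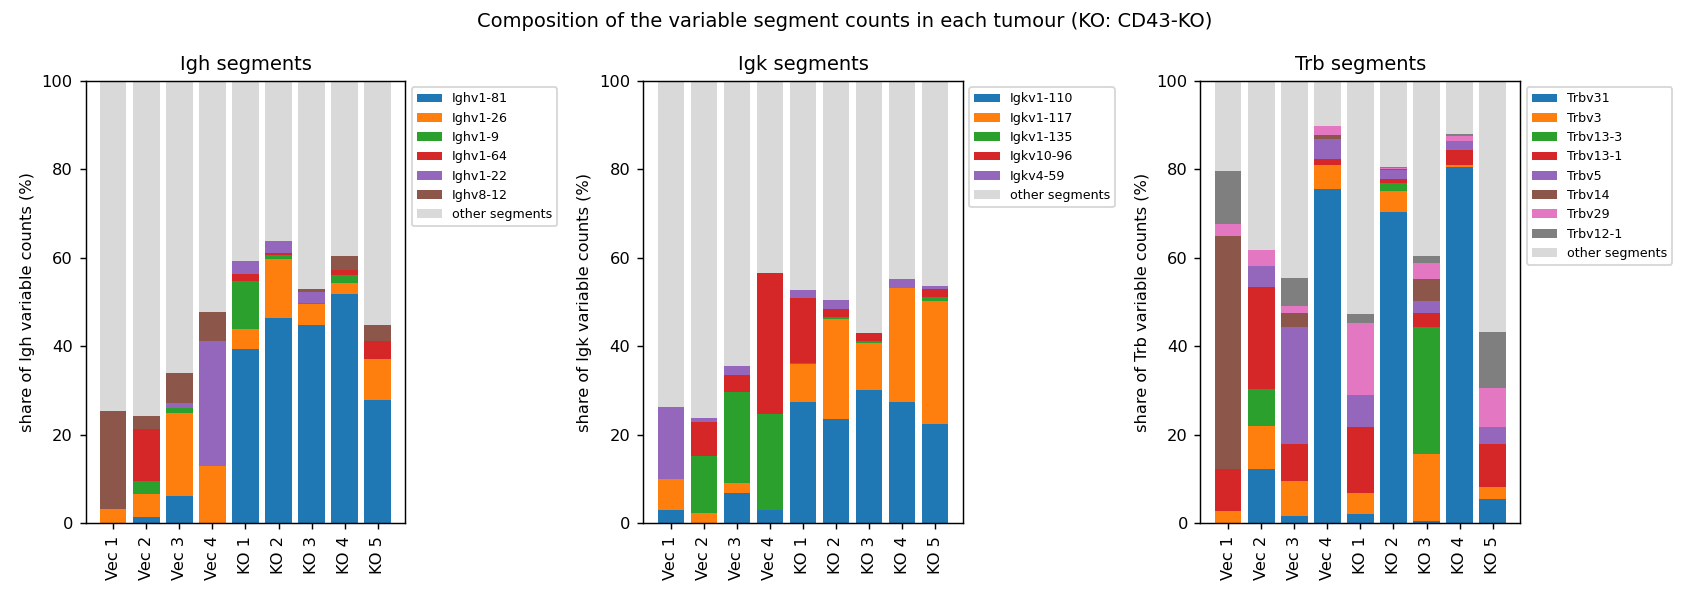
Share of each tumour's Igh, Igk and Trb variable counts held by the named segments, with the other segments in grey (bars sum to 100%). Ighv1-81 fills 27.8 to 51.8% of the Igh bar in the CD43-KO tumours and at most 6.21% in the Vec tumours, while Trbv31 fills 70.3 to 80.5% of the Trb bar in 1 Vec and 2 CD43-KO tumours.

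Below these leaders, some kappa segments with many counts were high mainly in 1 tumour. Chosen after their values were seen, Igkv1-88 had all of its 110 counts in CD43-KO replicate 1, Igkv9-124 had 125 of 139 counts in replicate 2, and Igkv14-126 had 113 of 150 in replicate 3. Igkv10-96, named by its mean level, had 0, 20, 17 and 22 counts in Vec and 169, 29, 13, 0 and 10 in CD43-KO. Its groups overlapped (log2 fold change 1.58 ± 1.27 SE; adjusted p = 0.561 in edgeR). Ighv1-81, Igkv1-110 and Igkv1-117 each had at least 51 counts in every CD43-KO tumour. Both sets of segments were chosen by their values, so the contrast between them follows in part from the choice.

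The lambda locus, which has few V segments in mice, was mostly Iglv1. It had 10, 13, 19 and 12 counts in Vec and 126, 233, 92, 13 and 40 in CD43-KO. In CPM, CD43-KO replicate 4 (0.222) lay inside the Vec range of 0.158 to 0.268, and the other 4 CD43-KO tumours lay above it. The log2 fold change was 3.01 ± 0.70 (SE), with adjusted p = 0.168 in edgeR, 0.0011 in DESeq2 and 0.119 in limma voom. Iglv2 had 12 and 13 counts in Vec replicates 2 and 3 and 5 and 11 in CD43-KO replicates 2 and 3, and 0 in the others. Iglv1 held 100, 48.1, 57.6 and 100% of Igl counts in Vec and 93.3, 95.9, 89.3, 76.5 and 100% in CD43-KO, so the shares overlapped. Vec replicates 1 and 4 and CD43-KO replicate 4 had 10, 12 and 17 Igl counts, for which the intervals reach down to 72.2, 75.8 and 52.7%. The other lambda segment, Iglv3, had at most 9 counts in any tumour.

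**Figure D3:**
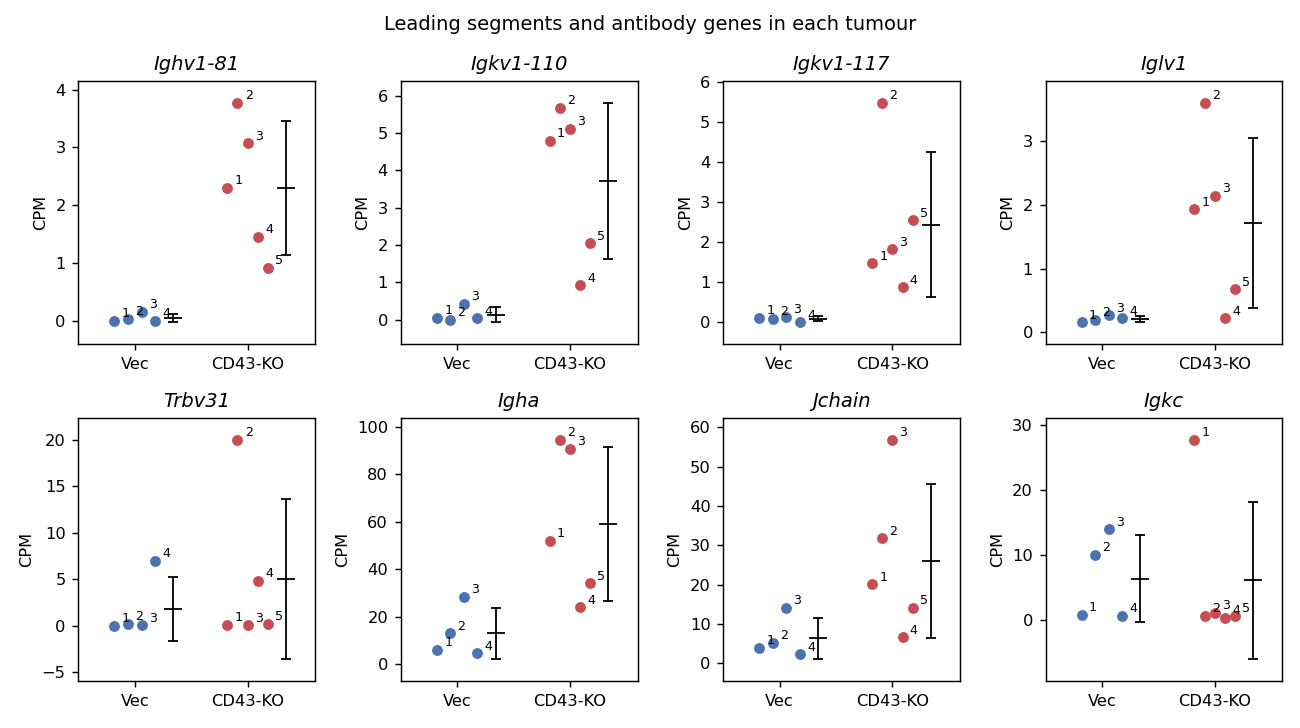
CPM of the leading segments and of the antibody genes Igha, Jchain and Igkc in every tumour, with replicate numbers and the mean and SD of each group (4 Vec, 5 CD43-KO). The groups do not overlap for Ighv1-81, Igkv1-110 and Igkv1-117 and overlap in the other 5 panels, and single tumours stand far above the rest for Trbv31 (CD43-KO replicate 2, 20.02 CPM) and Igkc (CD43-KO replicate 1, 27.8 CPM).

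Beta chain segments differed widely between tumours of the same group. Trbv31, which lies downstream of the constant regions in inverted orientation, had 0, 13, 3 and 378 counts in Vec and 5, 1297, 2, 284 and 10 in CD43-KO. It led the locus in Vec replicate 4 with 75.6% of Trb counts (interval 71.6 to 79.2%), in CD43-KO replicate 2 with 70.3% (68.2 to 72.4%) and in CD43-KO replicate 4 with 80.5% (76.0 to 84.3%). In the other 6 tumours it held at most 12.4%. The log2 fold change was 1.49 ± 1.95 (SE; adjusted p = 0.728 in edgeR), and -0.48 without CD43-KO replicate 2, so no direction can be given for this segment.

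Summed over Trb, the level was 1.17, 1.57, 2.67 and 9.25 CPM in Vec and 3.81, 28.5, 10.6, 6.02 and 3.10 CPM in CD43-KO, and 2 of 5 CD43-KO tumours stood above every Vec tumour. With Trbv31 left out the means were 1.86 ± 0.696 and 5.37 ± 3.96 CPM, a log2 difference of 1.20 ± 0.62 (SE), and 4 of 5 CD43-KO tumours stood above every Vec tumour. The remaining segments had no common leader. Of the counts without Trbv31, Trbv14 led Vec replicate 1 (52.7%), Trbv13-1 replicate 2 (26.1%), Trbv5 replicate 3 (26.9%) and Trbv3 replicate 4 (22.1%). Trbv29 led CD43-KO replicate 1 (16.8%), Trbv12-2 replicate 2 (18.3%), Trbv13-3 replicate 3 (28.8%), Trbv16 replicate 4 (46.4%) and Trbv12-1 replicate 5 (13.3%).

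Among those segments, Trbv13-3 had 131 of its 173 counts in CD43-KO replicate 3, and Trbv14 had 39 of its 73 counts in Vec replicate 1. Trbv3 had 2, 10, 15 and 27 counts in Vec and 12, 90, 70, 2 and 5 in CD43-KO (log2 fold change 1.57 ± 1.10 SE; adjusted p = 0.501 in edgeR). Trbv13-1 was the most even of the named beta segments, with 7 to 24 counts in Vec and 12 to 37 in CD43-KO (0.65 ± 0.48; adjusted p = 0.524 in edgeR). Trbv5 had 0, 5, 50 and 23 counts in Vec and 18, 40, 13, 7 and 7 in CD43-KO. Its log2 fold change of -0.07 ± 0.94 (adjusted p = 0.978 in edgeR) changed sign under other settings. Beta segments are well separated in sequence, since 3 of the 20 share any window of 50 bases with another V segment.

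Alpha chain segments had few counts in every tumour, and no segment led more than 2 tumours. The locus came to 0.221, 0.686, 0.747 and 0.592 CPM in Vec and 1.42, 1.51, 1.21, 0.409 and 0.677 CPM in CD43-KO, and 3 of 5 CD43-KO tumours stood above every Vec tumour. The log2 difference was 0.81 ± 0.49 (SE). Among tumours with at least 20 counts, the Vec tumours were led by Trav13-2, Trav13n-1 and Trav12-2 in replicates 2, 3 and 4, and the CD43-KO tumours by Trav8d-2, Trav7d-2, Trav6-6, Trav9d-3 and Trav6-6, in the order of the replicates. Trav6-6 and Trav7d-2 tied in CD43-KO replicate 5 at 8 counts each. No alpha segment reached the count needed for the test across all names.

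Single alpha segments are uncertain, because the locus in C57BL/6 mice holds duplicated blocks. Of 50 counted alpha segments with a sequence, 31 share more than 50% of their windows of 50 bases with another V segment. Every window of Trav6-6 recurs in Trav6d-6, and 99.7% of those of Trav7d-2 recur in Trav7-2. Trav11 and Trav11d, the segments of the invariant natural killer T cell receptor, were at 0 in every tumour. Trav1, used by mucosal-associated invariant T cells, had 7 counts in all, in Vec replicate 2 and CD43-KO replicates 1 and 3.

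Gamma and delta segments were close to the limit of detection. Trgv2 had 8, 4, 1 and 1 counts in Vec and 0, 1, 4, 1 and 0 in CD43-KO. Trdv4 led the delta locus wherever it had a count, with 4, 2, 9 and 0 counts in Vec and 6, 2, 26, 3 and 3 in CD43-KO. Only CD43-KO replicate 3 had counts in Trdv2-2 (6) and Trdv5 (5), which brought its delta sum to 0.860 CPM against 0.127 CPM in the highest Vec tumour. Without that tumour the log2 difference of the locus was 0.14 and not 0.76. Gamma segments under other names, such as Tcrg-V4 with 7 counts in all, lie outside the selection.

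The number of segments with a count was compared as found and at equal counts. It was 18, 35, 37 and 14 for Igh in the Vec tumours and 36, 38, 30, 25 and 29 in the CD43-KO tumours, so the groups overlapped (means 26.0 ± 11.7 and 31.6 ± 5.32). At an equal 46 counts per tumour, the smallest Igh total, the expected number was 18.9 ± 4.47 in Vec and 15.7 ± 1.75 in CD43-KO. The direction of the means thus turned once the tumours were set to the same number of counts, but the groups overlapped there too. For Igk the numbers were 16, 31, 35 and 12 in Vec and 47, 42, 33, 19 and 31 in CD43-KO. At an equal 69 counts they were 18.9 ± 6.11 and 18.1 ± 2.21. For Trb they were 8, 13, 16 and 11 in Vec and 16, 18, 18, 10 and 14 in CD43-KO, and for Tra 5, 17, 15 and 10 against 26, 25, 16, 10 and 11, again with overlap. At an equal 74 Trb counts they were 11.0 ± 3.31 and 12.1 ± 3.41, and at an equal 14 Tra counts 7.60 ± 2.13 and 8.88 ± 1.32, so CD43-KO kept the higher mean, with overlap.

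**Figure D4:**
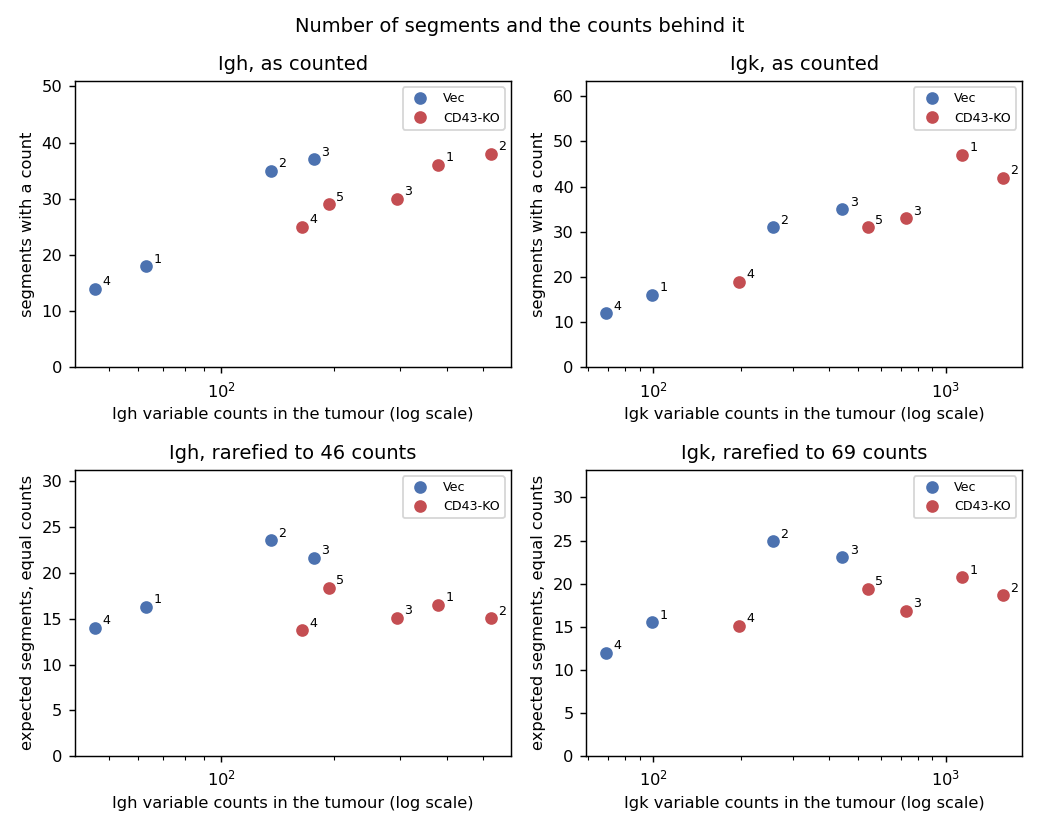
Number of Igh and Igk segments with a count in each tumour (upper panels) and the expected number when every tumour is reduced to the smallest locus total (lower panels), against the tumour's counts on a log axis. Points are tumours with their replicate numbers, and at an equal 46 Igh counts the CD43-KO tumours lie at 13.7 to 18.3 segments and the Vec tumours at 14.0 to 23.6.

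The share of the top segment, found anew in each tumour, was 20.2 ± 6.90% in Vec and 42.1 ± 9.09% in CD43-KO for Igh. The groups overlapped through CD43-KO replicate 5 (27.8%) and Vec replicate 4 (28.3%). For Igk the shares were 20.4 ± 8.31% and 27.3 ± 2.41%, and every CD43-KO tumour lay inside the Vec range. The effective number of Igh segments, which is the number of equally abundant segments that would give the same concentration, was 13.2 ± 5.70 in Vec and 5.38 ± 2.27 in CD43-KO, with overlap. For Trb the top share was 44.4 ± 24.7% and 41.7 ± 31.5%, and 32.0 ± 14.0% and 24.7 ± 13.4% without Trbv31. For Tra it was lower in CD43-KO on average, at 25.3 ± 9.62% in Vec (n = 3) and 18.6 ± 5.35% in CD43-KO (n = 5), with overlap. For Igl, in tumours with at least 20 counts, it was 52.9 ± 6.67% (n = 2) and 94.6 ± 4.48% (n = 4). Vec replicates 1 and 4, left out there for few counts, stood at 100%.

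Across all names, edgeR tested 18221, of which 17 were variable segments. A segment that is low in 1 group enters only through the other, so counts over the 17 do not speak for all 232. At an adjusted p under 0.05, 0 of the 17 passed in either direction, and so did 0% of all names. At an unadjusted p under 0.05, 8 segments were higher and 0 lower, against 7.74% and 7.62% of all names. DESeq2, which gave 7 of the segments an adjusted p, called 4 higher (Ighv1-81, Igkv1-110, Igkv1-117 and Iglv1) and 0 lower, against 1.55% and 2.3% of all names. Limma voom called 3 higher (the first 3 of these) and 0 lower, against 1.04% and 2.05%. These 3 were also the tested segments whose CD43-KO tumours all stood above the Vec tumours. The labels do not say how the mice and libraries were batched, so p-values measure the spread between these libraries, which may be technical in part.

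Constant region genes were read beside the variable segments, though several of them had few or no counts. Igha, the constant region of IgA and the most abundant heavy chain constant name here, was at 6.28, 13.1, 28.3 and 4.64 CPM in Vec and 52.0, 94.6, 90.8, 24.1 and 34.2 CPM in CD43-KO. Its groups overlapped through CD43-KO replicate 4. The log2 fold change of Igha was 2.17 ± 0.62 (SE; adjusted p = 0.208 in edgeR, 0.0341 in DESeq2 and 0.0546 in limma voom). There were 0.0689 to 0.164 Igh variable counts for each Igh constant count over the 9 tumours. Most of those constant counts stood under Igha, and how reads were assigned among the heavy chain constant names is not given. The kappa constant gene Igkc did not follow its variable segments. It had 48, 670, 990 and 29 counts in Vec and 1817, 36, 46, 17 and 36 in CD43-KO, so that Igk variable counts per Igkc count ranged from 0.384 to 43.4, and how Igkc reads were counted is not given in the sources used here.

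**Figure D5:**
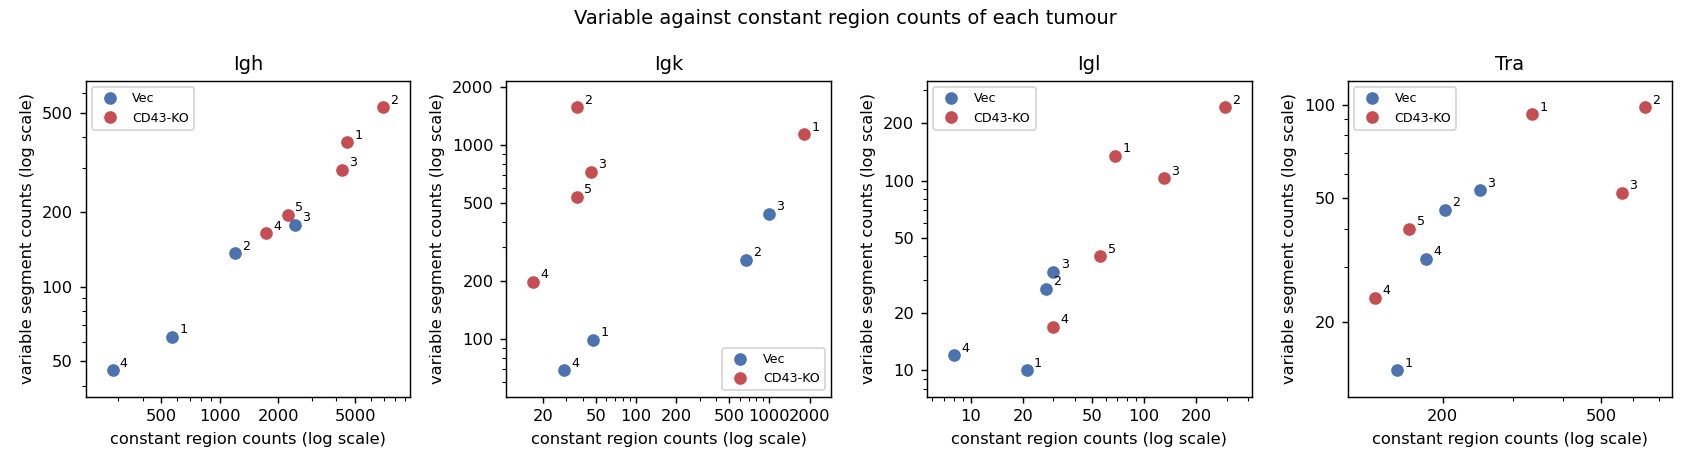
Variable segment counts against constant region counts of the same locus in each tumour, both on log axes, with replicate numbers beside the points. The Igh points keep between 0.0689 and 0.164 variable counts per constant count, whereas the Igk points spread from 0.384 to 43.4.

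Of the other constant regions, Iglc1 averaged 0.146 ± 0.130 CPM in Vec against 1.38 ± 1.46 CPM in CD43-KO. Its log2 fold change was 3.20 ± 1.01 (SE; adjusted p = 0.234 in edgeR, 0.0179 in DESeq2 and 0.247 in limma voom). Ighg2c, an IgG constant region of C57BL/6 mice, averaged 1.79 ± 1.27 and 5.36 ± 3.98 CPM (adjusted p = 0.432 in edgeR). The names Ighm, Ighd, Ighg1, Ighg3 and Ighe were listed at 0 in every tumour, but 3 of them had counts under a name with a suffix. Ighm_1 had 0, 8, 3 and 1 in Vec and 6, 4, 7, 5 and 8 in CD43-KO. Ighg1_2 and Ighg3_1 had 0 in every Vec tumour and 33 and 26 in all over the CD43-KO tumours, with 24 of the 26 in replicate 1. Trbc1 was at 0 in every tumour, and Trbc2 had 6 counts in CD43-KO replicate 2 only, beside 74 to 1844 Trb variable counts per tumour. Most counts of the alpha constant region stood under the name Trac_1, at 3.08 ± 0.475 CPM in Vec against 6.21 ± 4.02 CPM in CD43-KO (adjusted p = 0.323 in edgeR). Trdc, the delta constant region, averaged 0.220 ± 0.0680 and 0.612 ± 0.490 CPM, with its highest value in CD43-KO replicate 3 (1.47 CPM). Tcrg-C1, a gamma constant region, averaged 0.116 ± 0.166 and 0.433 ± 0.673 CPM, and Iglc2 0.0508 ± 0.0191 and 0.138 ± 0.124 CPM.

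Genes of the cells that use these receptors were read in the same fit. Of 15 B and plasma cell genes, 12 were tested, 0 passed in edgeR in either direction (8 higher and 1 lower at an unadjusted p under 0.05, beside 7.74% and 7.62% of all names), and DESeq2 called 1 higher and 0 lower, beside 1.55% and 2.3% of all names. Their median log2 fold change was 1.44, beside 0.03 over all names. Jchain, which joins IgA and IgM units, averaged 6.37 ± 5.27 and 25.9 ± 19.6 CPM (log2 fold change 2.02 ± 0.70 SE; adjusted p = 0.259 in edgeR). Cd22, a B cell inhibitory receptor, averaged 0.926 ± 0.412 and 3.34 ± 2.48 CPM. Its log2 fold change was 1.84 ± 0.55 (adjusted p = 0.214 in edgeR, 0.0207 in DESeq2 and 0.0896 in limma voom). Pou2af1, a B cell coactivator, lay at 0.0282 to 0.0925 CPM in Vec and 0.169 to 1.12 CPM in CD43-KO without overlap. Its log2 fold change was 3.21 ± 0.65 (adjusted p = 0.141 in edgeR and 0.0446 in limma voom), and DESeq2 gave it no adjusted p. Xbp1 and Sdc1, the most abundant of the list and expressed in many cell types, were at 132 ± 11.4 and 112 ± 9.57 CPM in Vec and at 111 ± 12.2 and 120.2 ± 5.82 CPM in CD43-KO (adjusted p = 0.298 and 0.577 in edgeR).

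All 14 T cell genes were tested, 0 passed in edgeR or DESeq2, 7 were higher and 0 lower at an unadjusted p under 0.05 (beside 7.74% and 7.62% of all names), and their median log2 fold change was 1.09. Cd8a, the coreceptor of cytotoxic T cells, averaged 10.6 ± 1.91 and 19.9 ± 11.8 CPM (adjusted p = 0.329 in edgeR), and Lck, the kinase that starts receptor signalling, 8.64 ± 1.72 and 12.7 ± 6.53 CPM (adjusted p = 0.467 in edgeR). Cd3e, a subunit of the receptor complex, averaged 3.41 ± 0.429 and 6.29 ± 3.63 CPM (adjusted p = 0.341 in edgeR). Ptprc, carried by all leukocytes, was at 35.9 to 61.8 CPM in Vec and 37.2 to 148.6 CPM in CD43-KO. Of 12 genes of receptor recombination and diversification, Rag1 and Rag2, which cut the segments before joining, were at 0 in every tumour. The 9 tested members had a median log2 fold change of 0.07, and 0 passed in edgeR or DESeq2 (1 higher and 1 lower at an unadjusted p under 0.05, where 7.74% and 7.62% of all names stood). Xrcc6 and Xrcc5, which bind broken DNA ends as the Ku dimer, averaged 79.3 ± 5.40 and 36.9 ± 4.27 CPM in Vec and 85.3 ± 6.70 and 29.0 ± 3.52 CPM in CD43-KO (adjusted p = 0.566 and 0.255 in edgeR).

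Markers of lymph node tissue were counted in both groups. The 6 summed to 4.50 to 6.04 CPM in Vec and 4.33 to 14.9 CPM in CD43-KO. Of the 3 tested, 0 passed in edgeR or DESeq2. At an unadjusted p under 0.05 in edgeR, 1 was higher and 0 lower, beside 7.74% and 7.62% of all names. Ccl21a, a chemokine of lymphatic vessels and lymph nodes, averaged 2.88 ± 0.544 and 5.98 ± 3.47 CPM (adjusted p = 0.256 in edgeR). Cxcl13, a chemokine that draws B cells, averaged 1.03 ± 0.265 and 1.79 ± 2.50 CPM, with 6.12 CPM in CD43-KO replicate 3 (adjusted p = 0.681 in edgeR). Glycam1 averaged 0.0374 against 0.176 CPM, Fcer2a 0.888 against 0.697 CPM, Madcam1 0.0616 against 0.0349 CPM and Cr2 0.117 against 0.0842 CPM. The 6 B cell markers summed to 0.964 to 2.48 CPM in Vec and 2.49 to 11.3 CPM in CD43-KO, and none was at 0 in every tumour. The part of these cells and tissues in the segment levels was not tested.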

How the data were processed

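Whole-number counts per gene name were deposited by the authors, 1 table per tumour, per the file headers and values, with no scaling to depth. The submitters' processing notes name HISAT2 2.1.0, StringTie 1.3.5 and DESeq2 with the build GRCm38. The sources used here give no counting step, annotation or strand setting, so reads of overlapping genes on opposite strands cannot be told apart. Each table held 42454 names, and 26 turned into dates (0.128 to 0.153% of counts) were left out. There were 0 columns without a sample.

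All 42428 gene names of the 9 tumours entered 1 fit with the group as its only term, in edgeR 4.0.16 under R 4.3.3 (filterByExpr with a minimum count of 10 and a minimum total of 15, TMM, robust quasi-likelihood F test, Benjamini-Hochberg, threshold 0.05), tested on simulated data. DESeq2 1.42.0 and voom of limma 3.58.1 with quality weights, other scalings, filters and pseudocounts, and leaving out each tumour were alternatives. CPM is TMM-scaled, and log2 differences of sums use a pseudocount of 0.05 CPM. Shares of the top segment need at least 20 counts in the locus. Replicates were numbered in order of deposition, and the most alike pair of libraries had a chi-square of 35.6 per degree of freedom, so no library was a copy of another.

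Segments named were the 3 highest by mean CPM in each locus, those that led a tumour, and those with the 3 smallest p in each direction, and Trav11, Trav11d and Trav1 in any case. In each list the genes that passed, or else the 2 most abundant, and the constant regions were named. Other genes were chosen after their values were seen, and some listed genes are not reported here. The segments and lists were chosen with earlier results of these data known.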

Additional observations from a re-analysis of the deposited data

Results flagged for a closer look

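In groups of 4 or 5 tumours, the highest or lowest tumour was compared with its nearest neighbour, and 19 gaps were wide for the range in 96 groups. For values not chosen by their height, chance gives such a gap in about 1 group of 20 (5%). Many segments here were named because they led a tumour, so that rate does not hold for them. Segments with few counts also give such gaps easily, and some gaps share counts, such as those of the Trd sum and Trdv4.

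The summed Trg level of CD43-KO replicate 3 (0.0930 CPM) and its summed Trd level (0.860 CPM) stood far above those of the other CD43-KO tumours. So did its number of Trd segments (3) and its level of Trdv4 (0.605 CPM). Vec replicate 4 was the only Vec tumour with 0 Trd segments.

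Among heavy chain segments, the tumours that stood far above their group were Vec replicate 4 for Ighv1-22 (0.241 CPM), Vec replicate 2 for Ighv1-64 (0.239 CPM), CD43-KO replicate 2 for Ighv1-26 (1.08 CPM) and CD43-KO replicate 1 for Ighv1-9 (0.627 CPM). Among kappa segments they were Vec replicate 3 for Igkv1-110 (0.423 CPM) and CD43-KO replicate 1 for Igkv10-96 (2.59 CPM). In CD43-KO replicate 1 the constant gene Igkc reached 27.8 CPM, with at most 1.07 CPM in the other CD43-KO tumours.

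Among T cell receptor segments they were Vec replicate 3 for Trav13n-1 (0.197 CPM), CD43-KO replicate 1 for Trav8d-2 (0.153 CPM), CD43-KO replicate 3 for Trbv13-3 (3.05 CPM), and Vec replicate 1 (0.616 CPM) and CD43-KO replicate 3 (0.512 CPM) for Trbv14. Trbv31 had such a tumour in both groups, at 6.99 CPM in Vec replicate 4 and 20.02 CPM in CD43-KO replicate 2.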

How the results depend on the processing

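Of the values recomputed under another setting, 497 kept their direction and side of the threshold or their size within the replicate spread, and 17 moved. The effective number was marked as moved by rule, because its unit differs from that of a share. A gene without an adjusted p in a setting was taken as not passing there. Among fold changes of single genes, 14 changed sign and 13 newly passed the threshold. A change of sign was not marked for the locus values. For them it could lie within the replicate spread: with 1 tumour left out, the difference in the Trb top share ran from -12.4 to 7.69 percentage points. The number of segments called higher, 0 in edgeR, was 4 with DESeq2 and 3 with limma voom, and ran from 0 to 2 when 1 tumour was left out (2 without Vec replicate 3). In DESeq2 it ran from 4 to 7 (7 without Vec replicate 3), and 0 segments were called lower in any of these settings. Without the most abundant segment, the log2 difference of the summed CPM was 0.98 for Igh and 0.39 for Igl, and none could be computed for Trg, which has 1 segment. At equal counts, the difference in the number of segments was -3.14 for Igh and -0.72 for Igk. In place of the top share, the effective number differed by -7.78 for Igh, -4.67 for Igk, -1.06 for Igl, 1.94 for Tra and 0.977 for Trb, and the share of the top 3 by 13.5 percentage points for Igk and 0 for Igl, which has 3 segments. Added after the data were seen, the Ighv1 share without Ighv1-81 differed by 11.02 points and the Igkv1 share without its leading pair by -11.7. Leaving out 1 tumour, the log2 fold change ran from -0.48 to 5.95 for Trbv31, from -0.57 to 0.79 for Trbv5 and from -3.33 to 0.69 for Igkc. Trbv5 was at 2.21 with limma voom, and with library totals alone Trbv5 was at 0.036 and Igkc at 0.039. Their direction therefore depends on the setting, and the cause was not tested. The low counts limit every single segment: 99 of 232 had fewer than 10 counts in all. No paired analysis was possible because the replicate numbers only follow the order of deposition.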
